A study of Mus musculus with 2 samples.

Results

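Osteoblast-lineage cells, the cells that make bone matrix, were a small population in single-cell libraries of the mouse knee. They were chosen by measured values: a cell belonged to them when at least 3 of 6 genes, Bglap, Bglap2, Ifitm5, Ibsp, Sp7 and Dmp1, were above 0. Of 6243 cells in all, 242 met this rule, 134 of 4903 in the control library and 108 of 1340 in the mutant library. The libraries were droplet 3′ libraries of live cells from knee joints of 1-month-old female mice. Each was 1 pool of 2 to 3 mice, sorted to leave out cells with the endothelial marker CD31, the red cell marker Ter119 or the white cell marker CD45. Both groups carried Stat3fl/fl, a Stat3 gene flanked by sites for Cre recombinase. The mutant was Acan-Cre+/Cre;Stat3fl/fl, with a tamoxifen-dependent Cre driven from the aggrecan gene, which is active mainly in chondrocytes, and tamoxifen was given soon after birth. No label marks which cells had recombined. With 1 library per genotype there was no replicate, so no test was made between genotypes. Intervals below are 95% intervals that cover counting error only, exact for shares and ratios and approximate for differences between shares. They do not cover differences between mice or preparations, and those of ratios also leave out the spread between cells.

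Osteoblasts arise from mesenchymal progenitors under the transcription factors Runx2 and Sp7, and they secrete collagen type I and the proteins that carry its mineral. As they mature they switch on osteocalcin, and some become embedded in the matrix as osteocytes. In the growing knee they line the bone that replaces growth plate cartilage, and part of them descend from chondrocytes. Of the selecting genes, Bglap encodes osteocalcin, a small calcium-binding matrix protein, and Bglap2 a near copy of it. Ibsp (bone sialoprotein) and Dmp1 encode acidic matrix proteins, Ifitm5 a membrane protein of mineralizing osteoblasts, and Sp7 the transcription factor osterix.

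The stretches before the start of 4 of the 6 genes are shown because RUNX2, the master factor of this lineage, binds the letters ACCACA. They come from RefSeq promoters on GRCm38.p6, in reading direction, trimmed where they run into the gene as Gencode annotates it. Capitals mark ACCACA or its reverse, TGTGGT. The stretches lie at chr3:88384467-88384716 on the minus strand for Bglap, chr5:104202367-104202612 on the plus strand for the second of 2 Dmp1 promoters, chr5:104299037-104299170 on the plus strand for Ibsp and chr7:140950292-140950493 on the minus strand for Ifitm5.
Bglap: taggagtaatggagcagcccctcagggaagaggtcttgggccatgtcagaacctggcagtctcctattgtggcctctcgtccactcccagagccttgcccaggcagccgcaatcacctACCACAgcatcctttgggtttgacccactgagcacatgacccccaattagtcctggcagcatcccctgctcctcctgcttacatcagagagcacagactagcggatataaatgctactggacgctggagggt
Dmp1: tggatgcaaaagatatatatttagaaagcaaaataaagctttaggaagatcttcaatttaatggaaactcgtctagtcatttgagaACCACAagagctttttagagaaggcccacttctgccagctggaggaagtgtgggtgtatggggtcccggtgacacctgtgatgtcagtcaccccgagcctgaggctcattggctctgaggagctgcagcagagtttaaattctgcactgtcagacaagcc
Ibsp: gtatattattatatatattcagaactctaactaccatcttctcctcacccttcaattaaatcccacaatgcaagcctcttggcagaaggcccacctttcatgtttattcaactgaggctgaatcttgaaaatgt
Ifitm5: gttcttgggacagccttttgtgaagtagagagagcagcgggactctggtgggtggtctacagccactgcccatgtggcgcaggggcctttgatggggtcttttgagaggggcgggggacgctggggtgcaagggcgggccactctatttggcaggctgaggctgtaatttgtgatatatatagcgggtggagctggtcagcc
The letters stood once in the Bglap stretch, starting at base -132 from the RefSeq start, and once in the Dmp1 stretch, at base -164. They were not in the 250 bases before Ibsp or Ifitm5. The first Dmp1 promoter held no match and is not shown, so the Dmp1 stretch was picked for its match. Over the same length they stood in 4614 of 32851 mouse promoters (14.0%), so a match is common and is a description of the letters only.

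Beside the following results stand facts on the libraries. The median osteoblast-lineage cell held 4992 estimated UMIs (captured transcripts) if control and 7786 if mutant. Other cells held 4325 and 3509. The control library was rich in red cell precursors, with 1877 of 4903 cells above 0 for at least 3 of 5 erythroid genes, against 18 of 1340 in the mutant. More than 5% mitochondrial counts were found in 12.7% (17) of the control and 40.7% (44) of the mutant osteoblast-lineage cells. The median was 3.0% and 4.28%, against 2.83% and 3.79% in other cells. The libraries shared 2 cell barcodes, and none of the lineage in both. Doublets, droplets with a pair of cells, were called for 74 control and 2 mutant cells, of which 0 and 1 were of the lineage. At 0.149% of cells the caller had not worked in the mutant library.

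Osteoblast-lineage cells were 2.73% of the control cells (interval 2.29% to 3.23%) and 8.06% of the mutant cells (6.66% to 9.65%). The difference was 5.33 percentage points (3.90 to 6.96). Leaving out cells with 3 or more erythroid genes raised the control share to 4.13%, against 8.17%, and the difference was then 4.04 points (2.48 to 5.77). Among cells without any globin UMI the control share was 5.88% and the difference 2.76 points. With every cell thinned to 1000 UMIs, for which 352 control and 206 mutant cells were too shallow, the shares were 1.32% and 4.94%. Deeper cells meet the rule more easily, and the part of depth was not tested beyond this thinning.

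The label was checked on genes that the rule did not use. Cells just outside and just inside the rule differed in median Col1a1 and in the share with Runx2. Just outside it, the 187 control cells with 2 selecting genes had a median of 1789 CPM, that is, UMIs scaled to a fixed total per cell, of Col1a1, the main chain of bone collagen. Just inside, the 61 control cells with 3 selecting genes had 23016 CPM. In the mutant the 129 cells outside had 1050 CPM, and the 37 cells inside had 30370 CPM. Runx2 was above 0 in 36.9% of cells outside and 62.3% inside in the control, and in 27.1% and 45.9% in the mutant. The commonest triple was Bglap, Bglap2 and Ibsp, in 20 of the 61 and 17 of the 37 cells. Only 7 control and 12 mutant cells had all 6 genes. The rule also took in cells with the values of chondrocytes. Several control cells with Col1a1 at 0 had Col2a1 at 24013 to 51973 CPM. Fewer mutant cells did, with Col2a1 at 11612 and 59351 CPM.

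Markers of white blood cells, endothelium and muscle were at or near 0. Of 7 leukocyte markers 6 were at 0 in the control members and 4 in the mutant, and the summed level was 1.28 and 6.09 CPM. The endothelial list summed to 7.81 and 17.9 CPM, with Cdh5, Kdr, Emcn and Tie1 at 0 in both libraries. Neutrophil and muscle lists stayed below 5 CPM. Genes of other skeletal cells and, in the control, of red cells were present. The fibroblast list summed to 860 and 625 CPM, of which Prg4 alone gave 847 and 608 CPM, with Pi16 and Dpp4 at 0 in both libraries. The tendon list summed to 598 and 249 CPM, the marrow stromal list to 594 and 548 CPM and the erythroid list to 266 and 1.14 CPM. At least 3 of 7 hypertrophic cartilage genes were above 0 in 67.9% and 64.8% of the cells, a list that shares Ibsp, Alpl and Pth1r with osteoblasts, while Col10a1 stood at 3.35 and 14.1 CPM. Of the chondrocyte list, 43.3% (58) and 41.7% (45) of the cells had at least 3 of 15 above 0. In other cells this share was 41.1% and 45.0%, near that of the lineage, while for the hypertrophic list it was 3.92% and 6.49%. Sox9 and Col2a1 were both above 0 in 15 control and 21 mutant lineage cells. Of osteocyte genes, Fgf23 was at 0 in both libraries and Sost and Mepe were at or below the floor of 3 UMIs, 4.05 CPM in control and 3.23 CPM in mutant cells. Late osteocyte genes were thus not detectable at this depth. Mural cell genes summed to 59.1 and 90.0 CPM, and of 7 osteoclast genes 3 and 4 were at 0.

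Osteocalcin UMIs were also found in cells that should not make it, so Bglap above 0 is not by itself a mark of the lineage. Bglap was above 0 in 8.91% of the other control cells and 28.5% of the other mutant cells. In cells with 3 or more fibroblast genes and fewer than 3 erythroid genes it was above 0 in 14.1% (64 of 453, median 3737 UMIs) and 14.9% (34 of 228, median 6895 UMIs). The rule of 3 genes was met by 0.442% and 0.439% of these fibroblast cells. It was met by 0.479% of the control erythroid cells, where Bglap was above 0 in 2.24%. By level the gene was concentrated: the lineage held 94.1% of all Bglap UMIs of the control library and 98.2% of those of the mutant.

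**Figure D1:**
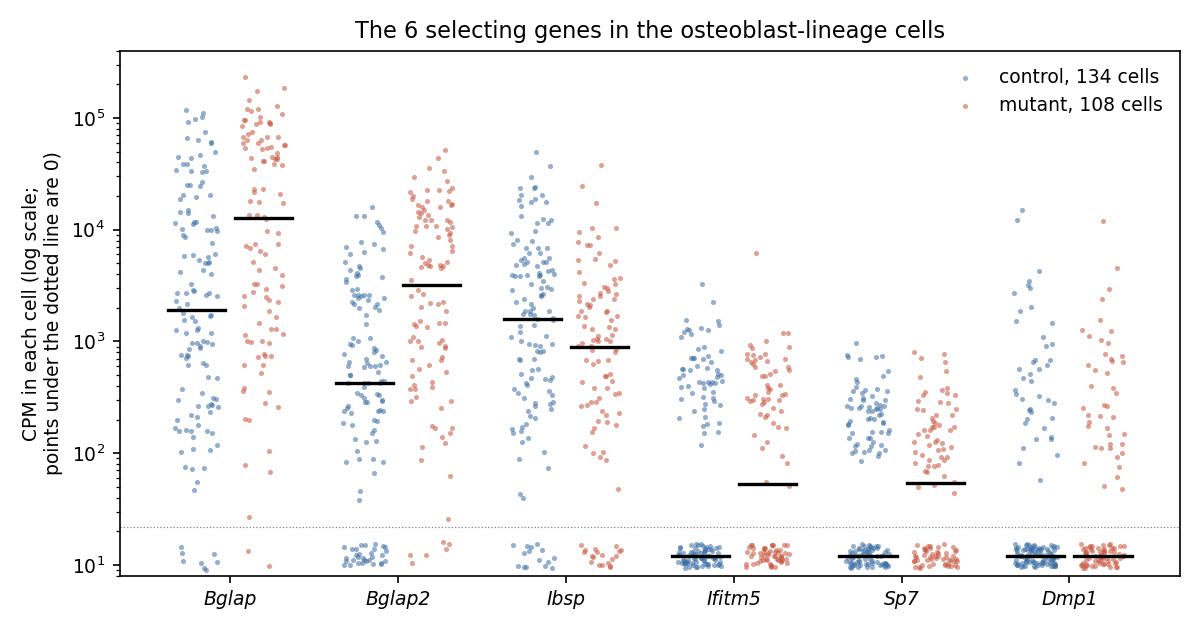
CPM of each of the 6 selecting genes in every osteoblast-lineage cell, on a log scale, with control cells in blue and mutant cells in red; bars are medians, and points under the dotted line are cells at 0. The Bglap median was 1908 CPM in control and 12741 CPM in mutant cells, while Dmp1 was at 0 in most cells of both libraries.

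The 6 genes were unevenly spread over the cells, as the plot of single cells shows. Bglap was above 0 in 127 of 134 control cells (94.8%) and 106 of 108 mutant cells (98.1%). Ibsp was above 0 in 88.8% and 82.4%, and Bglap2 in 77.6% and 95.4%. Ifitm5 was found in 45.5% and 50.9%, Sp7 in 48.5% and 52.8%, and Dmp1 in 32.1% and 40.7%. The high values of Dmp1 sat in few cells, with the top 3 cells holding 45.0% of its control and 46.3% of its mutant UMIs. For Sp7 the top 3 cells held 12.5% and 13.3%.

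Osteocalcin and its copy Bglap2 were the selecting genes past 2-fold between genotypes, both higher in the mutant. This contrast was partly fixed by the rule, which these genes served, so their values are given as a description. In single cells Bglap ran from 0 through a median of 1908 to 118226 CPM in the control, with quartiles at 280 and 11648 CPM. In the mutant it ran from 0 through 12741 to 233716 CPM, with quartiles at 1298 and 57554 CPM. The ranges overlapped from 0 to the highest control cell, and the mutant range ran on above it. Summed over cells, Bglap was 14966 CPM in control and 45237 CPM in mutant cells, a ratio of 3.02 (interval 2.96 to 3.09). The top 3 cells held 22.9% and 21.8% of its UMIs.

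The copies followed. Bglap2 was 1927 and 9310 CPM, a log2 ratio of mutant over control of 2.27. Bglap3, a further copy that the rule did not use, was 1222 and 3973 CPM, a log2 ratio of 1.70. The 3 genes lie in a row on the minus strand of chromosome 3 (GRCm38, Gencode), Bglap at 88383501 to 88384464, Bglap2 at 88377736 to 88378699 and Bglap3 at 88368616 to 88372743, and the last 200 bases of their transcripts, where 3′ reads fall, were 99.5% identical between Bglap and Bglap2, 97.0% between Bglap and Bglap3 and 97.5% between Bglap2 and Bglap3. How reads were shared among them is thus uncertain. The UMIs of Bglap were 7.77 times those of Bglap2 in the control and 4.86 times in the mutant. Summed, which does not depend on the sharing, the 3 genes were 1.81% of all UMIs of control osteoblast-lineage cells and 5.85% of those of mutant ones.

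The other selecting genes did not follow osteocalcin. Ifitm5 was 314 CPM in control and 291 CPM in mutant cells, a ratio of 0.927 (interval 0.776 to 1.11). Sp7 was 119 and 114 CPM, a ratio of 0.954 (0.717 to 1.29), and Dmp1 318 and 270 CPM, a ratio of 0.849 (0.710 to 1.02). Each of these 3 intervals holds 1. The log2 ratio of Dmp1 turned from -0.24 to 0.67 in cells with at least 4 selecting genes and was -0.94 with Bglap below 1000 CPM. Ibsp went the other way, with 4767 CPM in control and 2665 CPM in mutant cells, a log2 ratio of -0.84. Its median over cells was 1599 and 888 CPM, and the ranges overlapped.

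Against all other cells of the same table, 159 of 2125 genes tested (7.48%) were at least 2-fold higher in osteoblast-lineage cells in both libraries. A gene was tested here when the lineage cells of both libraries had it at 50 CPM or more and above 0 in at least 5% of cells. In the contrasts further on, 50 CPM in either group and 5% of the cells of either group were enough. Log2 ratios carry a pseudocount of 1 CPM. Since the cells were selected on genes of this kind, the contrast describes them and tests nothing. By the smaller of the libraries' ratios, the 20 leading genes held 4 of the selecting ones and Bglap3. The others were known osteoblast genes and less familiar ones.

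Lipc, which encodes hepatic lipase, stood at 82.2 CPM in control osteoblast-lineage cells and 0.727 CPM in other cells, and at 102 and 0.745 CPM in the mutant. It was above 0 in 24.6% and 35.2% of the cells. Enpp6, a choline-phosphate phosphodiesterase, had log2 ratios against other cells of 5.19 and 5.14. For Ptprz1, a receptor tyrosine phosphatase, they were 4.93 and 5.06, and for the carboxypeptidase Cpz 4.43 and 4.79. Car3, a carbonic anhydrase, was 684 CPM against 6.20 CPM in other control cells, and 1311 against 50.9 CPM in the mutant. The amino acid transporter Slc36a2 had log2 ratios of 5.76 and 4.39, and was above 0 in 45.5% and 61.1% of the cells.

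Better known genes of the lineage were in the same set. Phex, an endopeptidase that guards phosphate balance, had log2 ratios against other cells of 5.08 in control and 3.95 in mutant cells. Bmp3, a member of the BMP family that restrains bone mass, had 4.06 and 4.43, and Col13a1, a transmembrane collagen, 5.03 and 3.91. The cadherin Cdh2 had 4.42 and 3.58. Col1a1 itself stood at 66880 CPM in control osteoblast-lineage cells against 5108 CPM in other cells, and at 63971 against 3424 CPM in the mutant. The remaining leading genes were Chn1, Fhod3 and Cdo1. By list, 9 of 17 tested bone matrix genes, 6 of 7 mineralization genes and 5 of 9 osteogenic transcription factors were at least 2-fold higher in both libraries.

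A split by Bglap above 0 or not left 7 control and 2 mutant cells without it, too few to describe, so the cells were graded by the level of Bglap in the cell. At 1000 CPM or more stood 78 of 134 control cells (58.2%) and 86 of 108 mutant cells (79.6%), a difference of 21.4 points (interval 9.71 to 32.1). At 10000 CPM or more stood 39 (29.1%) and 55 (50.9%). With each cell thinned to 1000 UMIs the latter shares were 29.1% and 54.3%. Without thinning, 1.38% of other control and 7.39% of other mutant cells had Bglap at 1000 CPM or more. At 10000 CPM or more these shares were 0.021% and 0.487%. High Bglap was thus more frequent in the mutant outside the lineage too. Between the classes 49 of 2720 genes (1.8%) were at least 2-fold higher with Bglap at 1000 CPM or more in both libraries, and 234 (8.6%) were lower. The selection and this split use the same cells, and the figures are a description.

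Few genes were higher where osteocalcin was high in both libraries. Outside the osteocalcin trio the leading ones were Lipc, Prss35, Mlip, Cpz, Entpd3, Mtss1, Slc13a5, Ptprz1, Ifitm5 and Fbn2. For Lipc the log2 ratio of the high over the low class was 3.39 in control and 3.50 in mutant cells. For Slc13a5, the transporter that takes up citrate for bone mineral, it was 3.73 and 2.03. Of 17 bone matrix genes 7 were higher in the high class in both libraries and 1, Mgp, was lower. Col1a1 stood at 21515, 80705 and 117175 CPM over the 3 classes of the control, from below 1000 to 10000 and more, and at 23452, 70745 and 76450 CPM in the mutant. Ifitm5 stood at 113, 377 and 536 CPM and at 91.4, 341 and 345 CPM.

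Genes of earlier stages ran the opposite way. Of 13 osteoprogenitor genes 7 were lower in the high class in both libraries and 0 were higher. Postn, which encodes periostin of the periosteum, stood at 1364, 1565 and 243 CPM over the classes of the control and at 858, 244 and 94.0 CPM in the mutant. Cxcl12, a chemokine of marrow stroma, went by class from 657 to 36.1 and 11.8 CPM, and from 1277 to 213 and 14.9 CPM. In the low class the top 3 cells held 82.6% and 75.6% of its UMIs. Of 8 genes of the insulin-like growth factor axis 6 were lower in the high class. The alkaline phosphatase gene Alpl, which frees phosphate for mineral, was 1404, 1042 and 599 CPM and 1269, 845 and 518 CPM. It was thus highest where osteocalcin was low in both libraries. Sp7 lay at 107 to 126 CPM over the control classes and at 96.4 to 122 CPM over the mutant ones, and Runx2 at 177 to 245 CPM and 133 to 169 CPM.

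Chondrocyte genes were higher below 1000 CPM of Bglap, with 11 of 12 lower in the high class in both libraries. Acan, the gene of aggrecan, stood at 1056, 111 and 7.18 CPM over the control classes and at 424, 46.2 and 0 CPM in the mutant. The 10 genes that led on this side were Prg4, Scrg1, Col9a3, Ucma, Epyc, Col9a1, Cnmd, C1qtnf3, Acan and Hapln1, genes of cartilage or, for Prg4, of the joint surface. For Prg4 the top 3 cells held 92.5% of the control and 99.8% of the mutant UMIs, and for Acan 44.9% and 81.4%. Acan was above 0 in 36.6% and 11.1% of the cells. Col11a2 was the chondrocyte gene higher in the high class, by log2 ratios of 0.97 and 1.45.

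**Figure D2:**
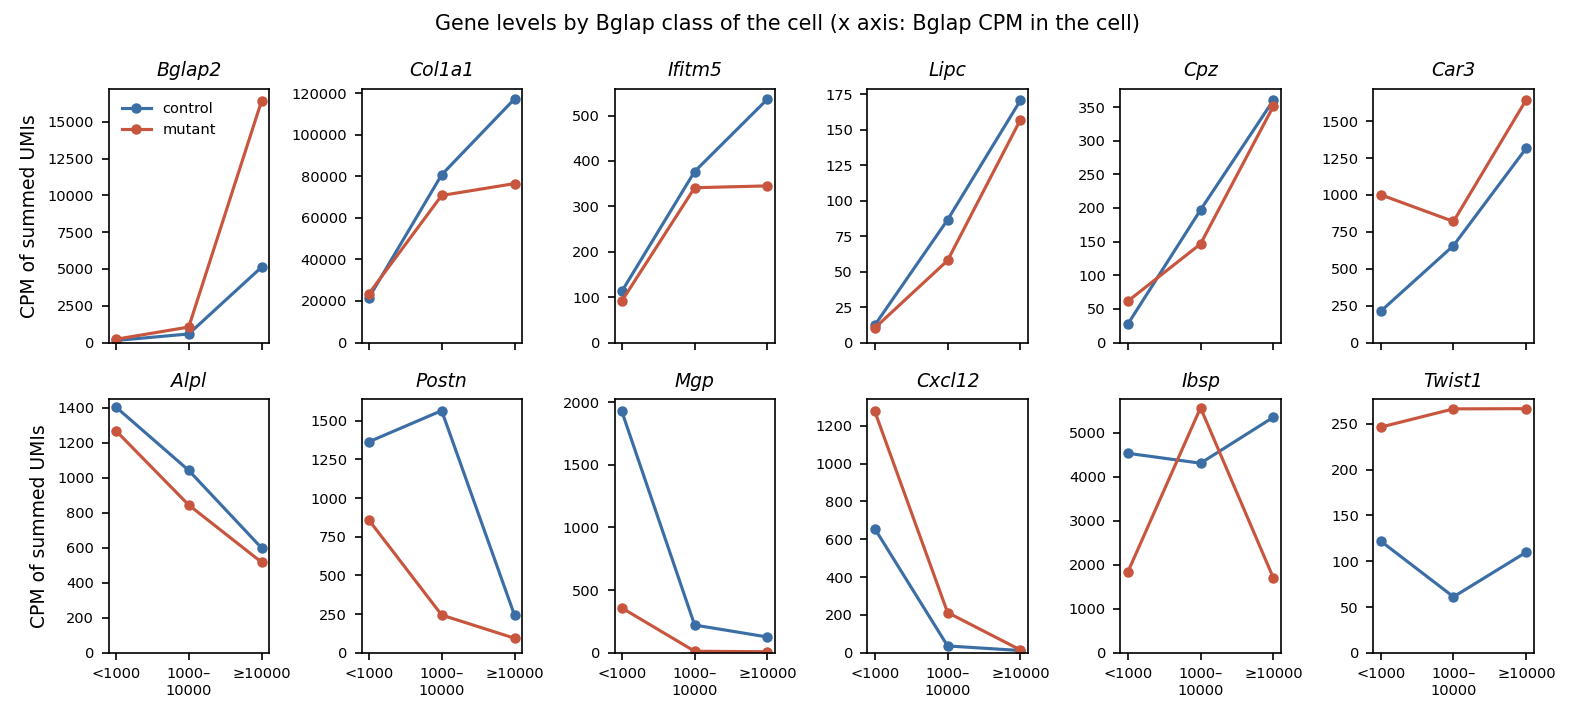
Levels of 12 genes (CPM of summed UMIs) in osteoblast-lineage cells by the Bglap level of the cell, below 1000, 1000 to 10000 and 10000 CPM or more, with 56, 39 and 39 control cells in blue and 22, 31 and 55 mutant cells in red. Lipc, Cpz and Ifitm5 were higher and Alpl, Mgp and Cxcl12 lower with more Bglap, and Twist1 was higher in the mutant in all 3 classes.

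Between genotypes, 140 of 3005 genes tested in osteoblast-lineage cells (4.66%) were at least 2-fold higher in the mutant and 245 (8.15%) at least 2-fold lower. Since 50 CPM in either library was enough, genes below it in 1 library were tested only through the library where they were high. The median log2 ratio over all tested genes was -0.20, and 0.14 in the other cells, so a ratio near -0.20 is no departure from the rest. The mutant lineage held a larger share of cells with Bglap at 1000 CPM or more, so each contrast was repeated in these. There 216 of 2774 genes (7.79%) were higher and 197 (7.1%) lower. Of 132 genes higher among all cells and tested there, 116 were also higher, and of 169 lower genes 128 were also lower. Beside these counts, genes that respond to dissociation of tissue were higher in the mutant, 7 of 19 by 2-fold or more and none lower, with a median of 0.82. In the other cells the median of that list was 1.03. The part of this, of the mitochondrial share and of depth in the genotype differences was not tested. Other cells with at least 3 erythroid genes were 39.2% of the other cells in the control and 1.46% in the mutant. The part of this in ratios given for other cells was not tested.

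Col1a1 had a log2 ratio of -0.06, Col1a2 of 0.10 and Sparc, the gene of osteonectin, of -0.14. Spp1 (osteopontin) had 0.44 and Dcn (decorin) 0.70. Of 17 tested bone matrix genes 1 was at least 2-fold higher, Bglap3, and 4 were lower, with a median of -0.14. The 4 were Col5a1, Postn, Tnn and Mgp.

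Mgp, which encodes an inhibitor of mineral deposition, had the widest gap of the 4. It stood at 944 CPM in control and 82.4 CPM in mutant cells, a ratio of 0.0873 (interval 0.0676 to 0.110), and was above 0 in 38.8% and 16.7% of the cells. In other cells it was higher in the mutant, 1822 and 4302 CPM. The top 3 cells held 53.1% of its UMIs in the control lineage cells, and with 2 selecting genes as the rule the log2 ratio shrank from -3.50 to -0.19. The control lineage cells with the highest Mgp levels, 29987, 8142 and 6246 CPM, had Col1a1 at 0. Their Col2a1 levels were 34968, 24013 and 44069 CPM. The next cell, at 6216 CPM of Mgp, had 14669 CPM of Col1a1 and 4102 CPM of Col2a1. Postn was 1027 and 290 CPM, a ratio of 0.283 (0.245 to 0.325), and above 0 in 46.3% and 23.1% of the cells. Its log2 ratio of -1.82 shrank to -0.77 with 2 selecting genes and to -0.67 with Bglap below 1000 CPM, both short of 2-fold. Tnn (tenascin N) was 211 and 97.9 CPM, and Col5a1 932 and 451 CPM. Below 1000 CPM of Bglap the Tnn ratio turned to 0.26 on the log2 scale.

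Of 10 mineralization genes none was higher and 2 were lower by 2-fold, both tied to pyrophosphate, which blocks mineral growth. Enpp1, which makes pyrophosphate outside the cell, was 165 CPM in control and 37.3 CPM in mutant cells, and above 0 in 29.9% and 15.7% of the cells. Ank, which exports it, was 103 and 33.0 CPM, a log2 ratio of -1.62, which shrank to -0.87 with 2 selecting genes and to -0.75 with Bglap at 10000 CPM or more. In other cells neither was lower, with log2 ratios of 0.56 for Enpp1 and 0.78 for Ank. Alpl, whose enzyme degrades pyrophosphate, had a log2 ratio of -0.48, Phex of -0.14 and Smpd3 of -0.02. Slc13a5 was 116 and 223 CPM, a log2 ratio of 0.94.

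Transcription factors of the lineage differed little, with 1 of 9 past 2-fold. Runx2 was 214 CPM in control and 146 CPM in mutant cells, a log2 ratio of -0.55. Mef2c had 0.21, Atf4 0.31 and Dlx5 -0.55. Twist1, which restrains Runx2 in early osteoblasts, was the exception at 105 and 262 CPM, a ratio of 2.51 (interval 1.95 to 3.31). It was above 0 in 39.6% and 68.5% of the cells, and in 10.4% and 21% after thinning. The ratio was 1.54 on the log2 scale where Bglap was at 1000 CPM or more and 1.01 below, and other cells had 1.86. Of 5 tested osteocyte genes 2 were higher, Pdpn (25.4 and 55.8 CPM) and Irx5 (50.9 and 104 CPM). Pdpn passed the filter of 50 CPM only through the mutant. Below 1000 CPM of Bglap the Irx5 ratio turned to -0.75 and the Pdpn ratio to -0.09 on the log2 scale, and 65.5% of the mutant Pdpn UMIs came from 3 cells.

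**Figure D3:**
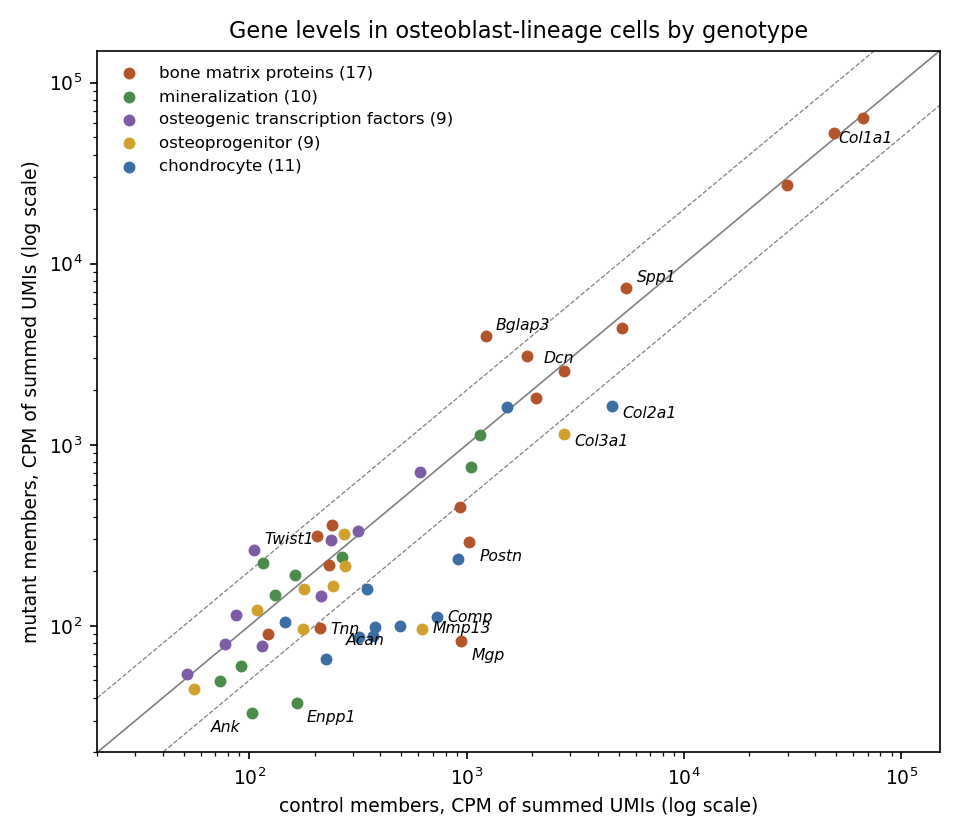
Levels of the tested genes of 5 lists in osteoblast-lineage cells, control on the x axis and mutant on the y axis (CPM of summed UMIs, log scales); the solid line is equality, dashed lines are 2-fold, and a gene of more than 1 list is drawn once. Most bone matrix genes lie between the dashed lines, with Mgp, Postn, Tnn and Col5a1 below them and Bglap3 above. Chondrocyte genes such as Acan and Comp also lie below the dashed lines.

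Of 12 osteoprogenitor genes none was higher and 4 were lower, with a median of -0.45. Beside Tnn and Postn these were Mmp13 and Col3a1. Mmp13, a collagenase of the mineralizing front, was 622 and 96.2 CPM, with the top 3 cells at 44.7% and 47.0% of its UMIs. Col3a1 was 2803 and 1154 CPM, a log2 ratio of -1.28, which shrank to -0.18 with Bglap below 1000 CPM. Hypertrophic cartilage genes included Mmp13 and Panx3 on the lower side. Genes for folding and secretion of collagen did not move as a group: 0 of 23 passed 2-fold, and the median was -0.14.

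Of 15 tested genes of BMP and TGF-beta signalling 4 were higher in the mutant and none lower. Bmp2, a ligand that drives bone formation, was 24.9 CPM in control and 85.9 CPM in mutant cells. It passed the filter of 50 CPM only through the mutant. Smad7, the inhibitory SMAD, was 142 and 441 CPM, a ratio of 3.09 (interval 2.50 to 3.89), and above 0 in 39.6% and 76.9% of the cells. The target genes Id1 and Id3 were 73.8 and 154 CPM and 389 and 844 CPM. All of these were also higher in other cells, with log2 ratios of 1.46, 1.76, 1.65 and 2.29. Below 1000 CPM of Bglap the log2 ratio of Id1 was -0.30. Of 6 Wnt genes none passed 2-fold.

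Few receptor and growth factor genes passed 2-fold. Of 10 tested genes on the receptor list 1 was higher, Ptgis, the prostacyclin synthase gene, at 220 and 540 CPM, and 1 was lower, Fgfr3, at 57.4 and 27.6 CPM. Pth1r, the receptor for parathyroid hormone, had a log2 ratio of -0.30 and Vdr of -0.45. Of 8 genes of the insulin-like growth factor axis 2 were lower, Igfbp7 (129 and 59.6 CPM) and Pappa (57.4 and 23.6 CPM). Of the genes that steer osteoclasts only Csf1 passed the filter, at 92.3 CPM in each library. Tnfsf11, the gene of RANKL, was below the filter at 9.33 CPM (6.90 UMIs) and 33.3 CPM (30.9 UMIs), a ratio of 3.57 (1.53 to 9.5).

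Stat3, the deleted gene, was present in osteoblast-lineage cells of both genotypes. It stood at 136 CPM in control and 117 CPM in mutant cells, a ratio of 0.859 (interval 0.650 to 1.14). It was above 0 in 44.0% and 52.8% of the cells, and in 14.9% and 9.52% after thinning to 1000 UMIs. The 3′ reads need not cover the deleted stretch, so the level does not show whether a cell had lost the protein. Over the Bglap classes Stat3 stood at 143, 122 and 136 CPM in the control and at 133, 128 and 106 CPM in the mutant.

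Of 9 tested genes of the gp130-STAT3 pathway 1 was higher and none lower, with a median of -0.14. Il11, a cytokine that signals through gp130, was the higher one, at 11.7 CPM (8.63 UMIs) in 3.73% of the control cells and 63.7 CPM (59.1 UMIs) in 22.2% of the mutant cells. It passed the filter of 50 CPM only through the mutant. After thinning it was above 0 in 1.49% and 1.9%, so that a difference was not detectable at equal depth. In other cells Il11 was 9.04 and 143 CPM. Il6st, the gene of gp130, was 113 and 63.2 CPM, a ratio of 0.557 (interval 0.394 to 0.790). After thinning its log2 ratio shrank from -0.83 to -0.18. Lifr, a partner of gp130, was 466 and 372 CPM, and Osmr 28.9 and 13.9 CPM. Socs3, a feedback gene that STAT3 induces, was 95.2 and 90.0 CPM, a ratio of 0.945 (0.688 to 1.33). Its log2 ratio of -0.08 turned to 1.01 after thinning and was -0.68 with Bglap at 10000 CPM or more. Lifr stood far above other cells, with log2 ratios of 3.21 and 2.42, and Stat3 did not do so in the mutant, with 1.02 and -0.04.

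Of the 10 genes with the largest ratios of mutant over control, 6 are known to respond to interferon or to serve antigen display, a grouping made after their values were seen: Cxcl9, Iigp1, Bst2, H2-Q4, Cxcl10 and H2-Q7. In the control all 6 lay below the filter of 50 CPM, so they entered the ranking only through the mutant. Their place in it was thus partly fixed by the filter. The other 4 were Dbp, Gfod2, Maff and Cebpb, and Gfod2 rested on 5 mutant cells, the top 3 of which held 96.0% of its UMIs. Cxcl9, a chemokine induced by interferon-gamma, was 4.01 CPM (2.97 UMIs in 2 cells) in control and 399 CPM in mutant cells, a ratio of 99.5 (interval 33.5 to 480). It came from 12 mutant cells, and the top 3 held 86.8% of the UMIs. All 12 cells also had H2-D1 above 0, against 66 of the other 96, which was not repeated at equal depth.

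Broader members of the response were higher in many cells. Irf1, H2-D1, H2-K1 and B2m were chosen after their values were seen. Irf1, an interferon-induced transcription factor, was 69.1 and 305 CPM, and above 0 in 23.9% of the control cells (interval 16.9% to 32.0%) and 63.9% of the mutant cells (54.1% to 72.9%). At equal depth the shares were 3.73% (1.22% to 8.49%) and 25.7% (17.7% to 35.2%), and the intervals did not overlap. In other cells they were 2.17% and 8.65%. The class I genes H2-D1 and H2-K1 were above 0 at equal depth in 13.4% and 28.6%, and in 14.2% and 31.4%. In other cells these shares were 15.1% and 26.6% for H2-D1 and 9.51% and 18.9% for H2-K1. The lineage intervals of H2-D1 overlapped (8.16% to 20.4% and 20.2% to 38.2%). For B2m the shares were 23.1% and 41.9% in the lineage, and 23.5% and 23.2% in other cells. Without thinning, B2m was also higher in mutant than control other cells with fewer than 3 erythroid genes, at 228 and 321 CPM. It was above 0 in 43.6% and 49.0% of these, against 65.7% and 79.6% of the lineage, at 317 and 638 CPM. Iigp1 was 12.1 and 178 CPM and Bst2 18.3 and 138 CPM, with thinned shares under 10% in both libraries. Irf1 was above 0 in 12.1% and 32.5% of fibroblast cells, at unequal median depths of 3737 and 6895 UMIs. In other cells with fewer than 3 erythroid genes it was 36.0 and 95.3 CPM, so a higher level was not confined to the lineage. Irf1 lay at 61.3 to 74.5 CPM over the control classes and at 205 to 374 CPM over the mutant ones, and each mutant class stood above each control class.

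**Figure D4:**
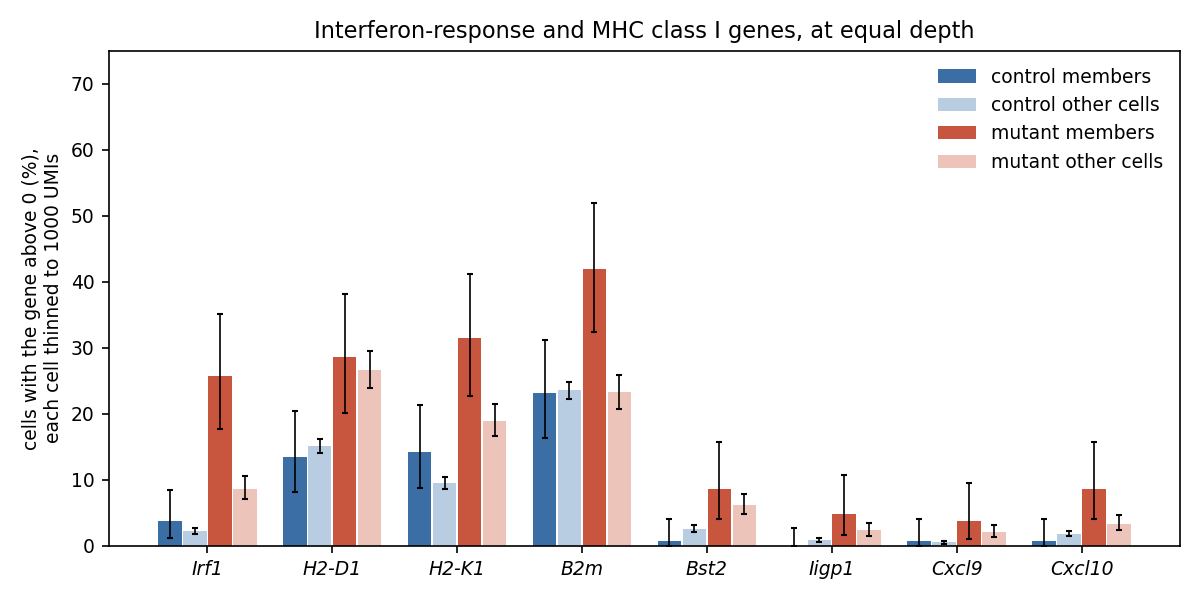
Share of cells above 0 (%) for 8 interferon-response and MHC class I genes after every cell was thinned to 1000 UMIs, in osteoblast-lineage cells (dark) and all other cells (light) of the control (blue) and the mutant (red); bars are shares and whiskers exact 95% intervals for counting error. Irf1 reached 25.7% in mutant osteoblast-lineage cells against 3.73% in control ones.

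Among the 10 genes most lower in the mutant were 3 globins, 4 histone genes and Mki67, beside Mgp and Prelp. The globins Hba-a1 and Hbb-bt had no UMI in the mutant lineage cells and were lower by at least 16.6-fold and 20.4-fold against a floor of 3 UMIs over the group. Globin UMIs were in 64 control and 2 mutant osteoblast-lineage cells. Mki67, a gene of dividing cells, was 120 CPM in 25.4% of the control cells and 0.753 CPM (0.699 UMIs) in 1 mutant cell. The histone genes Hist1h3c, Hist1h2br, Hist1h2ap and Hist1h2ae were on the same side. These genes were far higher in the other control cells, at 1818 CPM for Mki67, where the red cell precursors are. In cells without a globin UMI the log2 ratio of Mki67 was -4.95, against -6.11 in all. Of 9 tested G2/M genes 3 were lower and none higher. The part of free red cell transcripts in these values was not tested beyond that.

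Chondrocyte genes were lower in 9 of 11 tested cases, with a median of -1.87, and none was higher. Comp was 727 and 111 CPM, Acan 494 and 100 CPM. In the mutant the Cre sits in the Acan locus, and the part of this in the Acan values was not tested. The top 3 cells held 45.5% and 79.4% of the Comp UMIs. Col11a2, at a log2 ratio of 0.08, and Sox9, at -0.47, were the others. Among cells with Bglap at 1000 CPM or more the median was -0.07 over 5 tested genes, and it was 0.04 at 10000 CPM or more. In cells with fewer than 3 chondrocyte genes above 0 it was 0.26, a limit that uses the same genes. The tendon gene Fmod was 525 and 178 CPM, and Prelp 172 and 22 CPM.

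Col2a1, the collagen of cartilage, took a course of its own, which was looked into after the values were seen. Summed over the cells it was lower in the mutant, 4659 and 1645 CPM, but it was above 0 in more of them, 32.8% (interval 25% to 41.5%) and 60.2% (50.3% to 69.5%). In the control 3119 of its 3447 UMIs were in cells with Bglap below 1000 CPM, and in the mutant 844 of 1527. Where Bglap was at 10000 CPM or more, Col2a1 was above 0 in 9 of 39 control cells (23.1%, interval 11.1% to 39.3%) and in 42 of 55 mutant cells (76.4%, 63.0% to 86.8%), at 316 and 1251 CPM. In the mutant class the top 3 cells held 38.4% of its UMIs. After thinning the shares were 17.9% (7.54% to 33.5%) and 41.8% (28.7% to 55.9%). The same 55 mutant cells had no UMI of Acan, Snorc or Col9a2, while Col11a2 was above 0 in 51 of them (92.7%) and in 38 of the 39 control cells (97.4%). In fibroblast cells, which should not make it, Col2a1 was above 0 in 21.9% and 21.5% (median 3737 and 6895 UMIs), and in control erythroid cells in 12.1% (median 5666 UMIs). Sox9 was above 0 in 33.3% and 30.9% of the cells of this class. The median depth was 5767 and 8216 UMIs.

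The deposited tables mark some cells. In the control 501 cells were marked and 1013 had both Sox9 and Col2a1 above 0, and in the mutant 332 and 335. The mark covered 9 control and 21 mutant osteoblast-lineage cells. These were 1.80% and 6.33% of the marked cells. Among the marked cells they held 89.2% and 98.3% of the Bglap UMIs, and 18.1% and 80.8% of the Col1a1 UMIs. Of the Ibsp UMIs they held 8.72% and 8.57%, and of the Alpl UMIs 15.1% and 32.6%. A summed osteocalcin or, in the mutant, collagen I level over the marked cells was thus mostly that of a few osteoblast-lineage cells, while Ibsp came from others.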

How the data were processed

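Cells of the knees of 2 genotypes were profiled in 1 droplet 3′ library each (10x Genomics). The authors aligned reads to mm10 with STAR 2.7.3a in Partek Flow, removed duplicate UMIs, assigned UMIs to Gencode genes, took as cells the barcodes above the bend of a knee plot, and lowered ambient RNA with SoupX, and R 4.0.3 is among the tools named. The deposited values are log2(CPM + 1) per cell over 32245 gene columns, and the deposited estimated counts are each cell's UMI total after ambient removal. The deposited tables also give the percent of mitochondrial counts, the number of genes above 0, which is treated as a score, and a text mark that the authors set on some cells. The stated limit of 5% mitochondrial counts was not applied in these tables.

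UMIs were recovered as CPM times the cell's total. They lay within 0.1 of a whole number for 74.9% of values in the control and 97.3% in the mutant, and were used as estimates, with no count model. They were summed over cells and scaled to CPM. Log2 ratios used a pseudocount of 1 CPM, and 2-fold changes were counted among genes with at least 50 CPM in either group and above 0 in at least 5% of the cells of either group (in both libraries for lineage against other cells). Shares have exact Clopper-Pearson 95% intervals, differences between shares have Newcombe intervals, and ratios have Poisson counting intervals over summed UMIs. Each group was 1 pool, so no test between genotypes was made. Doublets were called with Scrublet in scanpy 1.11.5 (expected rate 0.05) and left in. Python 3.11.15, numpy 2.4.6, scipy 1.17.1 and pandas 2.3.3 were used, and the scripts were tested on simulated data.

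The selecting genes, the gene lists and the cells were chosen with earlier results of these data known. The genes named were the selecting genes, Bglap3, Stat3, Il6st, Lifr, Osmr and Socs3, the genes of the bone lists, genes of other lists past 2-fold, and the 10 most higher and lower in each contrast. A split at Bglap above 0 left too few cells without it, so 1000 CPM of the cell, was used in the report. Cells of another type were counted by at least 3 genes of its list above 0. Alternatives covered the selection, depth, filters, scaling, pseudocount, mitochondrial and globin limits, and doublets. Some genes are not reported here.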

Additional observations from a re-analysis of the deposited data

Results flagged for a closer look

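Each gene below was at least 2-fold lower in mutant than in control osteoblast-lineage cells and at least 2-fold higher in the other mutant cells. The difference between the cell groups was not tested, since each rests on 1 library per genotype. Of the other cells, 39.2% in the control and 1.46% in the mutant had at least 3 erythroid genes above 0. The part of this in their ratios was not tested. Mgp had a log2 ratio of -3.50 in the lineage (944 and 82.4 CPM) and 1.24 in other cells (1822 and 4302 CPM). Igfbp7 had -1.10 (129 and 59.6 CPM) and 1.56 (463 and 1365 CPM). Pappa had -1.25 (57.4 and 23.6 CPM) and 1.16 (27.3 and 62.3 CPM). Col9a3 had -1.12 (349 and 160 CPM) and 1.24 (733 and 1735 CPM). Lpl had -1.41 (79.8 and 29.4 CPM) and 1.41 (125 and 334 CPM). Over all tested genes 17 stood on opposite sides in this way, while 100 were higher in both cell groups and 45 lower in both.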

How the results depend on the processing

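No paired analysis was possible because each genotype was 1 library. Alternatives on Bglap classes, chondrocyte genes and the authors' mark in the genotype contrast, the 10000 CPM limit, and further versions of the 1000 CPM split were chosen after seeing the data. The cause of the changes below was not tested. Of the recomputed counts, shares and list medians 139 stayed within their limits, 49 moved and 2 reversed, and of the values of single genes 764, 111 and 8. Against 140 higher and 245 lower genes, thinning to 1000 UMIs gave 325 and 710, no filter 2168 and 3752, and a limit of 200 CPM 44 and 49. Cells with Bglap below 1000 CPM gave 337 and 455, those at 1000 CPM or more 216 higher, those at 10000 CPM or more 263 higher, and 2 selecting genes 153 lower. The chondrocyte median of -1.87 became -0.88 with 2 and -1.28 with 4 selecting genes, -0.068 with Bglap at 1000 CPM or more, -0.74 below, 0.043 at 10000 CPM or more, 0.26 in cells with fewer than 3 chondrocyte genes and -3.09 in unmarked cells. The osteoprogenitor median was 0.16 below 1000 CPM of Bglap. Col2a1 reversed to 0.11 with 4 selecting genes, 0.23 at 1000 and 1.98 at 10000 CPM or more of Bglap, and 1.78 without cells with 3 chondrocyte genes. Tnn reversed to 0.19 with 2 selecting genes and 0.26 below 1000 CPM of Bglap, where Irx5 became -0.75, and Socs1 became -0.22 after thinning. Shares of the lineage were 6.55% and 17.7% (difference 11.1 points) with 2 selecting genes, 1.49% and 5.30% (3.81) with 4, and 1.32% and 4.94% (3.62) after thinning. The control share was 5.88% among cells without a globin UMI (difference 2.76) and 4.13% without erythroid cells. The share with Bglap was 83.8% and 92.0% with 2 selecting genes and 100% and 100% with 4, and 100% in the mutant at or below 5% mitochondrial counts. It was 71.6% and 84.8% (difference 13.1 points) after thinning, 58.2% and 79.6% (21.4) at 1000 CPM and 29.1% and 50.9% (21.8) at 10000 CPM. Split at Bglap above 0, with 7 and 2 cells without it, 176 genes were higher and 215 lower. The higher count was 49 at 1000 CPM, 42 with cells weighted equally, 61 without chondrocyte-gene cells and 78 thinned. Thinning the split at 0 gave 101 higher and 453 lower. The genotype contrast in cells without Bglap could not be fitted, with fewer than 10 cells.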
